A study of Mus musculus with 2 samples.

Results

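The genes described here encode the subunits and regulators of cohesin, the condensin subunits, the SMC5/6 ATPases, CTCF and other DNA-binding architectural proteins, and proteins of the nuclear lamina. They are 36 named genes of the 21646 protein-coding genes on chromosomes 1 to 19 and X, taken by symbol, and all 36 were found in the annotation (GENCODE M21). By role they are 5 genes of the cohesin ring, 9 genes of cohesin loading, release and acetylation, 8 condensin genes, 3 genes of the group SMC5/6 and Smchd1, 8 genes of DNA-binding and other architectural proteins, and 3 lamina genes. The data are CTCF ChIP-seq peaks from whole lung of newborn mice (postnatal day 0, strain B6NCrl), with 1 group and 2 replicates. The labels record no mutant allele and no treatment, and trace both replicates to 1 donor and 1 biosample, which means that their spread may be purely technical. Lung mixes many cell types, and each peak sums over all of them. Peak lists carry no RNA, so the labelled tissue could not be checked against its marker genes, and with no second condition every comparison is between genes of the same tissue.

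Cohesin is a ring-shaped complex that encircles DNA, holds sister chromatids together and extrudes chromatin loops. CTCF is a zinc-finger protein whose asymmetric DNA motif sets a direction: cohesin is held where it meets CTCF, and loops tend to form between motifs that face each other. The NIPBL-MAU2 dimer loads cohesin, WAPL with the PDS5 proteins releases it, the ESCO acetyltransferases modify SMC3, and condensin, a related ring complex, compacts chromosomes in mitosis. In lung, as in other tissues, CTCF binds at the promoters of many genes, and here its sites are described at the genes of this machinery itself.

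A site was a peak of the authors' optimal list, which they made by comparing peak lists with the irreproducible discovery rate (IDR). A promoter site was one with its summit at most 1000 bp from the transcription start site (TSS) of a protein-coding transcript. Not every site was found in both replicates: of 10482 promoter sites of all genes, 9789 had a peak within 100 bp in both. The CTCF core motif, a stretch of 12 bases, was searched on both strands within 50 bp of the summit with at most 1 mismatch. At Smc6 and Lbr a promoter site other than the strongest held the core (in Lbr without mismatch) and is not shown. The sequences of the core with its flanks are shown for 5 of the 6 members in which the strongest promoter site held it (Esco1, the other, is not shown here). These sequences are among the letters most like the CTCF motif at the strongest promoter sites of the members. They are read 5′ to 3′ from the GRCm38.p6 assembly (mm10) of RefSeq, on the strand that is named, which was also the strand of the gene, and capitals mark the core. Stag1 had the core without mismatch, and each of the other sequences shown had 1 mismatch. For Stag1 only the core and short flanks are given, because the stretch overlaps an untranslated region.
Stag1, chr9:100643564-100643593, plus strand: gcagcgcggCCAGCAGAGGGCggtcgggac
Pds5b, chr5:150673669-150673728, plus strand: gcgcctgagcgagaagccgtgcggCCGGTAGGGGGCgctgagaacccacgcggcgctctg
Smc3, chr19:53599885-53599944, plus strand: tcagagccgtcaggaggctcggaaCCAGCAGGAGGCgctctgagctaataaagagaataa
Rad21, chr15:51991858-51991917, minus strand: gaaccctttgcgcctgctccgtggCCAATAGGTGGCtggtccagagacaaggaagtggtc
Maz, chr7:127027962-127028021, minus strand: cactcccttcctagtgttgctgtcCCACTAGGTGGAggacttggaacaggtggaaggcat

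Strong promoter sites also lay at members where the core was not found. The stretches around the summits of Stag2, Chd8 and Satb1 are shown for comparison, on the plus strand of the same assembly. Capitals mark the best match to the core within 50 bp of the summit, which had 2 mismatches in Stag2 and in Satb1 (in Satb1 on the minus strand). The stretches shown reach farther than this window. In Stag2 another match with 2 mismatches runs past the window and is not marked. In Chd8 the best match had 3 mismatches and is not marked. A missing match says only that these letters were not within the window.
Stag2, chrX:42149156-42149306: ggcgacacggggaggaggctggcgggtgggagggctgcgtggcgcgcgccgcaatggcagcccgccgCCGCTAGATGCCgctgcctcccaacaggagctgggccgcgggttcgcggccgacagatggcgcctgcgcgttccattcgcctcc
Chd8, chr14:52257910-52258060: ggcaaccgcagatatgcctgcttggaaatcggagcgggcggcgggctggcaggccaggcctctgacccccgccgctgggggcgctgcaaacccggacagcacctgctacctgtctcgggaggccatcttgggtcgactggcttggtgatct
Satb1, chr17:51832910-51833060: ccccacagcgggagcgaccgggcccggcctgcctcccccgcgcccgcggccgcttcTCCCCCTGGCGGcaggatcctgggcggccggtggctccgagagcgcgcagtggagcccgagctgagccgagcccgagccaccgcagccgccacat

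CTCF sites lay at the promoters of 25 of the 36 genes (69.4%, Wilson 95% interval 53.1 to 82.0%), beside 39.8% of all protein-coding genes. All 5 cohesin ring genes and all 3 lamina genes had one, as did 7 of the 8 DNA-binding genes, 5 of the 8 condensin genes and 2 of the 3 genes of the group SMC5/6 and Smchd1. Of the 9 genes for loading, release and acetylation of cohesin, 3 had one (33.3%, interval 12.1 to 64.6%). Within 25000 bp of a TSS, 33 of the 36 genes had a site, beside 79.9% of all genes. The intervals cover counting error only, and no test was made, because the genes were named with earlier results of these data known. At the 32366 sites of highest signal, which are the upper part of the list by the pooled signal, 11 of the 36 genes kept a promoter site, beside 19.2% of all genes, and none of the 8 condensin genes did.

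**Figure D1:**
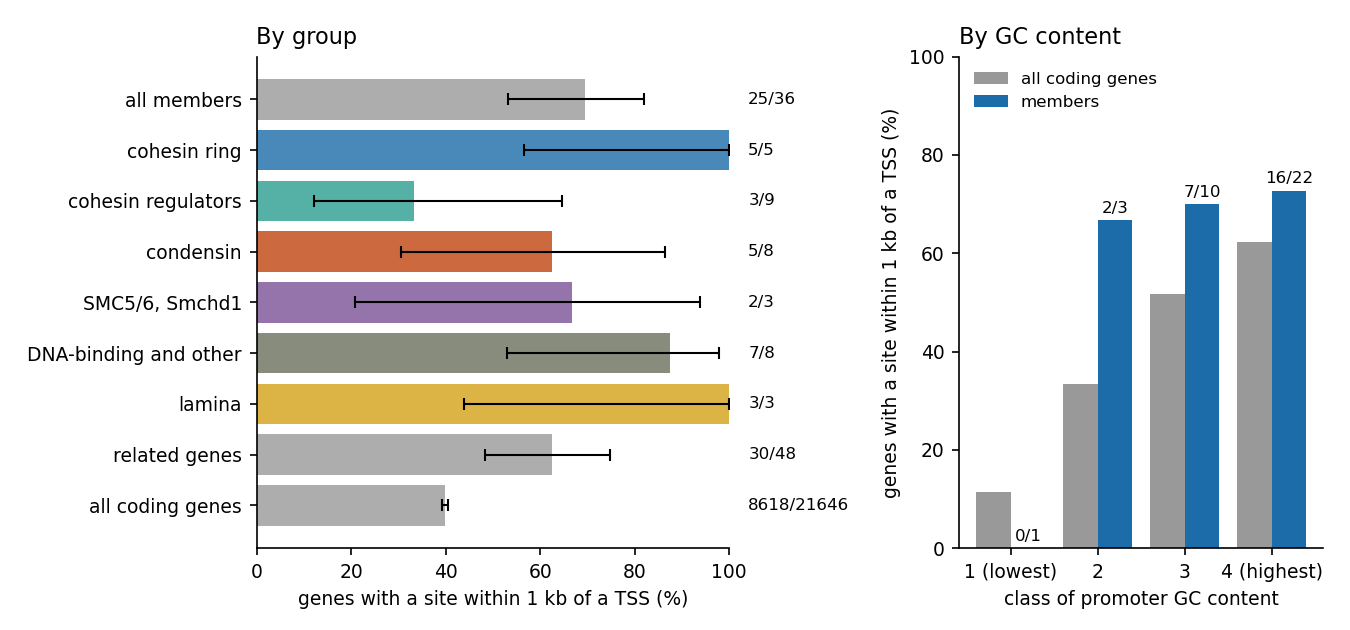
Left, share of genes (%) with a CTCF site within 1 kb of a TSS for all members, each role group, the 48 related genes and all coding genes, with Wilson 95% intervals as bars and the counts beside them. Right, the same share for members (blue) and all coding genes (grey) in 4 classes of about equal size, by GC content around the outermost 5′ end. Members were above all genes in 3 classes, and the lowest class held 1 member, without a site.

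Peak signal is the authors' own value for each peak, in a unit that the sources used here do not define, so it serves only to order peaks within a list. Values of the optimal list come from pooled replicates, and the lists of the single replicates are on about a 2-fold lower scale. Over the 25 genes, the median pooled signal of the strongest promoter site was 60.4, beside 72.2 over the 8618 genes with such a site. The median place in the list, counted from the strongest site, was 56.6% for members and 51.5% for all genes. The order of members and all genes turned with the setting: the medians of signal were 274 and 194 at the strongest sites, 73.9 and 64.1 with starts within 500 bp, and 102 and 80.5 with the starts of all transcripts. The median place turned under the same settings, to 33.6 and 53.7%, 50.96 and 54.8%, and 42.7 and 48.6%. The 25 genes ranged from 18.8 at Ncaph2 to 406 at Stag1, and 11 of them lay in the upper part of the list.

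Within the cohesin ring, the 5 promoter sites differed widely in signal. Stag1 and Stag2 encode the alternative stromal antigen subunits, to which CTCF binds. At Stag1 the strongest site had signals of 202 in replicate 1 and 206 in replicate 2, and at Stag2 125 and 134. Smc3, whose product is the ATPase arm that ESCO enzymes acetylate, had 139 and 147. In these 3 genes the replicates lay close together and above every signal of Rad21 and Smc1a. Rad21, the kleisin that closes the ring, had 45.8 and 32.7. Smc1a, the other ATPase arm, had 23.0 and 7.56, the widest gap between replicates among the 5 genes. Its site was not in the authors' conservative list, the smaller of their IDR lists. In the pooled list the signals were 406 for Stag1, 286 for Smc3, 258 for Stag2, 79.9 for Rad21 and 38.6 for Smc1a.

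The strongest Stag1 site, at chr9:100643317-100643747, overlapped untranslated exon sequence 37 bp upstream of an annotated start that lies inside the gene, 45778 bp downstream of its outermost end. With the outermost end of each gene as the only start, Stag1 had no promoter site and 4 of the 5 ring genes had one. A further site stood 558 bp upstream of the same group of starts, with 112 in replicate 1 and 116 in replicate 2. A weak site, 659 bp downstream of another of these starts, had 12.2 in replicate 1 and no peak in replicate 2. The Rad21 site, at chr15:51991767-51992046, lay 160 bp upstream of the gene in intergenic sequence, and was the only site within 25000 bp of a Rad21 start. The strong Smc3 site lay 480 bp upstream, and a second one, 53 bp downstream of the start, had 12.2 and 15.05.

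The regulators of cohesin were either high or had no listed promoter site. Pds5a and Pds5b, which encode the HEAT-repeat proteins that bind cohesin and take part in its release and in its stalling at CTCF, and Esco1, the acetyltransferase active through interphase, had the 3 sites. Pds5b had 157 in replicate 1 and 183 in replicate 2. Esco1 had 176 in both. Pds5a had 148 and 146. These signals lay close between replicates, and the pooled values of 332, 351 and 293 were the highest among the 25 genes after Stag1 (406). Esco1 and Pds5b each had the site immediately upstream of the outermost end, 66 and 33 bp away, with the core motif. Pds5a had it 1351 bp inside the gene, 934 bp downstream of the nearest coding start, and 2 weaker sites just upstream of its starts, with 44.5 and 32.2 at one and 48.3 and 46.4 at the other.

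The 6 regulators without a listed promoter site were Nipbl and Mau2, the loader, Wapl, the release factor, Esco2, the acetyltransferase of S phase, Hdac8, which removes the acetyl group from SMC3, and Cdca5, which encodes sororin, the protector of cohesion. Nipbl was just outside the limit: a site of 106 and 112 stood 1015 bp upstream of its start, at chr15:8445354-8445578. Cdca5 had its nearest site 4516 bp downstream, with 8.32 in replicate 1 and 19.2 in replicate 2. Esco2 had one 11473 bp upstream with 84.7 and 74.5, and Hdac8 one 11199 bp inside the gene with 62.9 and 67.7. These last 3 sites held the core motif. For Mau2 and Wapl the nearest sites lay 27521 and 31867 bp downstream of a start, beyond the wider limit. The Mau2 site was weak (22.9 and 18.0), and the Wapl site strong (173 and 189).

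The condensin genes had promoter sites of low signal. Smc2 and Smc4 encode the ATPase pair shared by condensin I and II, and had 20.03 and 12.5 at Smc2 and 25.5 and 31.4 at Smc4, in replicates 1 and 2. The HEAT-repeat subunit genes Ncapd2 and Ncapd3 had 15.7 and 22.4, and 30.3 and 24.2. The kleisin gene Ncaph2 had the lowest, 12.3 and 6.13. In the pooled list all 5 lay between 18.8 and 58.7. Their median was 35.6, beside 72.2 over all genes with a promoter site. No condensin gene had more than 1 promoter site, beside 10.4% of all genes that did. None of the 5 sites held the core motif, beside 22% of the strongest promoter sites of all genes. With so few genes and sites, neither absence sets the condensin genes apart. The Ncaph2 site was not in the conservative list.

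Ncapg, Ncapg2 and Ncaph, which encode the other HEAT-repeat and kleisin subunits, had no listed promoter site. For Ncapg a site stood 1428 bp upstream of the start, at chr5:45668426-45668528, with 70.8 and 69.5 and with the core motif. This site was stronger in both replicates than any condensin promoter site. Ncaph had its nearest site 4165 bp upstream (17.5 and 8.99), and Ncapg2 10874 bp upstream (16.2 and 16.7). Just outside the 1000 bp of other condensin genes, a site 1041 bp upstream of Ncapd3 had a pooled signal of 59.6 and the core motif, and one 1109 bp downstream of a start of Smc4 had 107.

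Smc6, an ATPase of the SMC5/6 complex of DNA repair, had 16.7 and 27.0 at 87 bp inside the gene. A weaker site at an inner start, 48130 bp from the outermost end, had 7.18 and 12.97 and held the core motif. Smchd1, a non-canonical SMC protein needed on the inactive X chromosome, had 24.8 and 20.1 at a site in a coding exon, 194 bp inside. Smc5 had no site within 25000 bp of a start in the optimal list, and the nearest was 25221 bp upstream (17.8 and 15.9). In the conservative list, and in the highest peaks of replicate 2 alone, Smc5 did have a promoter site, so its absence here depended on the list used.

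**Figure D2:**
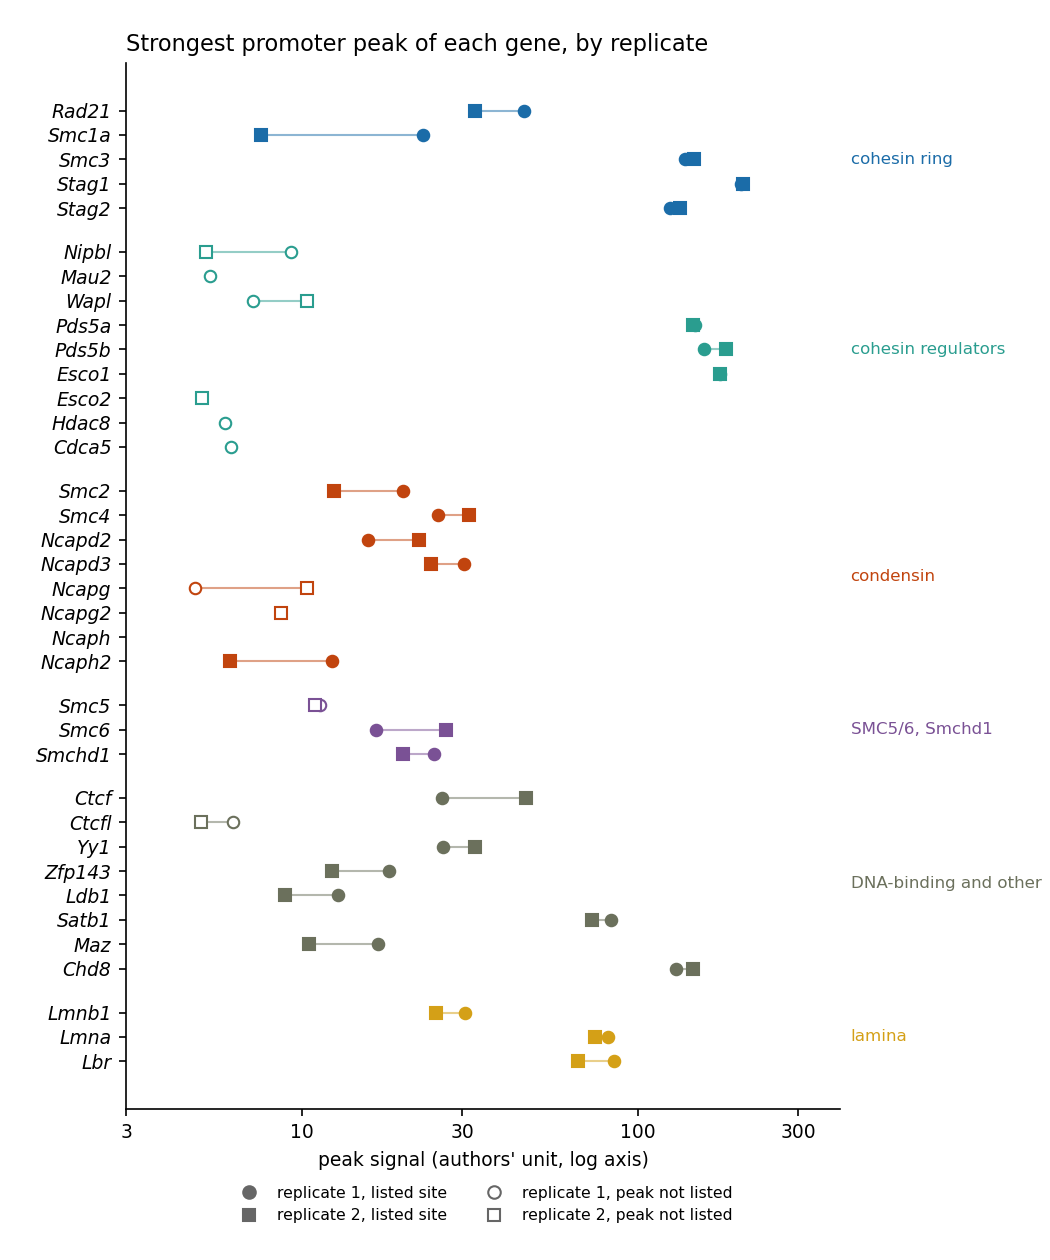
Peak signal (authors' unit, log axis) of the strongest promoter peak of each of the 36 genes, in replicate 1 (circles) and replicate 2 (squares), grouped by role. Filled symbols are listed sites; open symbols are the highest pooled peaks within 1 kb that were not listed, a lone symbol means no peak within 100 bp in the other replicate, and Ncaph had none in either. Pds5a, Pds5b and Esco1 stand at 146 or higher in both replicates. The other regulators, at or below 10.4, are shown by peaks that the list left out, so this gap follows in part from the listing and the 1 kb limit. The listed site of Nipbl 1015 bp upstream (106 and 112) is not shown.

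Among the DNA-binding and other architectural genes, Chd8, which encodes a chromatin remodeller that binds CTCF, had the strongest promoter site, with 130 in replicate 1 and 146 in replicate 2. Satb1, a genome organiser of T cells, had 83.2 and 73.4. Ctcf itself had 26.1 and 46.5 at an intronic site 236 bp downstream of a start, without the core motif. These 3 genes stood in that order in both replicates. Yy1, a zinc-finger factor found at loops between enhancers and promoters, had 26.3 and 32.8, and 2 further sites on either side of it had 27.2 and 21.2 and 20.7 and 17.9. Zfp143, a zinc-finger factor of promoters, had 18.1 and 12.3.

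Maz encodes a zinc-finger factor that lies beside CTCF at many sites, and had 16.9 and 10.5, at a site 936 bp upstream with the core motif. A much stronger one, with 178 and 167, stood in a coding exon 1089 bp downstream of a start, just outside the limit. Ldb1, the cofactor that joins enhancers to promoters through LIM proteins, had the lowest signals of the group, 12.8 and 8.94. Its 2 other promoter sites were as weak, with 11.3 and 10.1 at one, and no peak in replicate 1 and 17.6 in replicate 2 at the other. Ctcfl, the testis paralogue of Ctcf, was the 1 gene of this group without a promoter site, and its nearest one lay 5535 bp inside the gene (15.6 and 15.9), with the core motif.

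The lamina genes all had promoter sites. Lmna, which encodes the A-type lamins, had 81.4 and 74.6, 157 bp inside its outermost end. Lbr, the lamin B receptor that tethers heterochromatin, had 85.2 and 66.3, 194 bp upstream of a start. Lmnb1, the gene of lamin B1, had the lower values of 30.7 and 25.2 at a site 691 bp inside. At an inner start of Lbr, 14497 bp from its outermost end, a second site had 46.7 and 45.9 and the core without mismatch, on the strand opposite to the gene. The 2 weak sites at an inner start of Lmna had 21.5 and 14.4, and 27.0 and 5.32, and the second of these was the member site with the largest gap between replicates.

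The 11 genes without a listed promoter site were not empty in the unthresholded lists. In the pooled list of 300000 peaks, most of which the authors did not keep, all 11 had a peak within 1000 bp of a start, with signals from 6.40 at Ncaph to 23.3 at Smc5. In 5 of the 11, both replicates had a peak within 100 bp of it. The same shares over all genes without a listed promoter site were not computed, so these counts show nothing particular to the members. Nipbl had 9.29 and 5.19, Wapl 7.18 and 10.4, and Ncapg 4.82 and 10.3. Smc5 had 11.4 and 10.98, and Ctcfl 6.25 and 5.01. The median of all peaks was 5.07 in replicate 1 and 4.70 in replicate 2, so several of these values lay near the level of an ordinary unlisted peak. The pooled peak of Smc5 (23.3) was higher than some listed sites, among them the site of Ncaph2 (18.8).

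Member promoter sites held the core motif as often as promoter sites in general: 8 of 39 (20.5%), beside 20.6% of 10482. Windows of the same length beside the promoter sites held it in 1.23%. With up to 2 mismatches the shares were 48.7% for members, 50.7% for all promoter sites and 9.30% for the neighbouring windows. The 8 sites were the strongest ones of Rad21, Smc3, Stag1, Pds5b, Esco1 and Maz and the second ones of Smc6 and Lbr. Their median pooled signal was 190, beside 44.9 at the 31 member sites without the core, and over all promoter sites the same medians were 168 and 48.4. Weak sites with the core also occurred, at Smc6 (19.5) and Maz (28.0), as did strong sites without it, at Pds5a (293), Chd8 (274) and Stag2 (258). At 7 of the 8 sites the core lay on the strand of the gene, beside 55.1% of 2228 placements of cores at all promoter sites.

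More than 1 promoter site was found at 9 of the 36 genes (25.0%), beside 10.4% of all genes. Stag1, Pds5a, Yy1, Ldb1 and Lmna had 3 each, and Smc3, Smc6, Satb1 and Lbr had 2. In Yy1, Smc3 and Ldb1 these sites lay around the first starts of the gene, whereas in Smc6, Satb1, Lmna and Lbr the additional ones lay at starts farther inside. Of the 39 sites, 14 overlapped untranslated exon sequence, 13 introns, 6 intergenic sequence, 3 coding exons and 3 other exons.

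A promoter site shared with the start of another protein-coding gene was found at 8 of the 25 genes (32.0%), beside 16.2% of all genes with a promoter site. The pairs were Smc1a with Ribc1, Smc4 with Ift80, Ncapd2 with Mrpl51, Ncapd3 with Vps26b, Ncaph2 with Lmf2, Smc6 with Gen1, Ctcf with Agrp and Maz with Kif22. Of the 5 condensin genes with a site, 4 shared it. None of the sites of the 3 cohesin regulators or the lamina genes was shared in this way. The shared sites had a median pooled signal of 40.7 and a highest of 67.9, at Ctcf, beside a median of 153 at the genes that did not share theirs. Over all genes the same medians were 58.8 and 75.04. At a shared site these data do not tell which of the paired starts the signal belongs to.

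Base composition and the number of starts moved with the count of promoter sites. The window around the outermost 5′ end of each member had a median GC content of 62.5% and a ratio of observed to expected CpG of 0.877. Over all genes these were 54.8% and 0.558. Stag1 was thus classed by an end without a promoter site (50.5% GC), not by the inner starts at its sites. In 4 classes of GC content, of about equal size, sites were found at 11.5%, 33.3%, 51.7% and 62.2% of all genes from the lowest to the highest class, and at 0 of 1, 2 of 3, 7 of 10 and 16 of 22 members. Of genes with 4 or more starts, 59.8% had a site, and 9 of 11 members did. Of genes with 2 or 3 starts, 38.8% had a site, and 10 of 13 members did. Of genes with 1 start, 30.1% had a site, and 6 of 12 members did. On the X chromosome, where 20.5% of genes had one, Smc1a and Stag2 had a site and Hdac8 did not. The part of GC content and start number in the member count was not tested.

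The strongest member sites lay upstream of the nearest start in 14 of 25 genes (56.0%, beside 56.6% of all), at a median distance of 194 bp in both. Within 100 bp of a start lay 6 of 25 (24%, beside 32.7% of all). Stag1 and Pds5a were the 2 genes whose strongest site lay inside the gene, more than 1000 bp from the outermost end (8%, beside 16.8% of all genes with a promoter site).

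In the wider surroundings, members had a median of 4 sites within 25000 bp of a start, beside 3 over all genes. The strongest site within this distance had a median signal of 239, beside 269. In 26 of 33 genes it was not a promoter site. Among these were Nipbl, Esco2, Hdac8, Cdca5, Ncapg, Ncapg2, Ncaph and Ctcfl, which had no promoter site to compare. The same share over all genes was not computed. Chd8 had the highest, 588 at 21688 bp upstream. Lmna followed with 524, Ctcf with 484, Ldb1 with 450 and Esco1 with 447. At Ctcf this site, 14003 bp upstream, held the core motif and had 243 in replicate 1 and 245 in replicate 2, well above its promoter site (26.1 and 46.5). Ldb1 and Ncaph2, which had the weakest promoter sites, had strong ones nearby (450 and 275). Lmna had the most sites, 13, of which 5 held the core. Over the 129 member sites within this distance, 53 (41.1%) held the core, beside 45.5% of those of all genes.

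**Figure D3:**
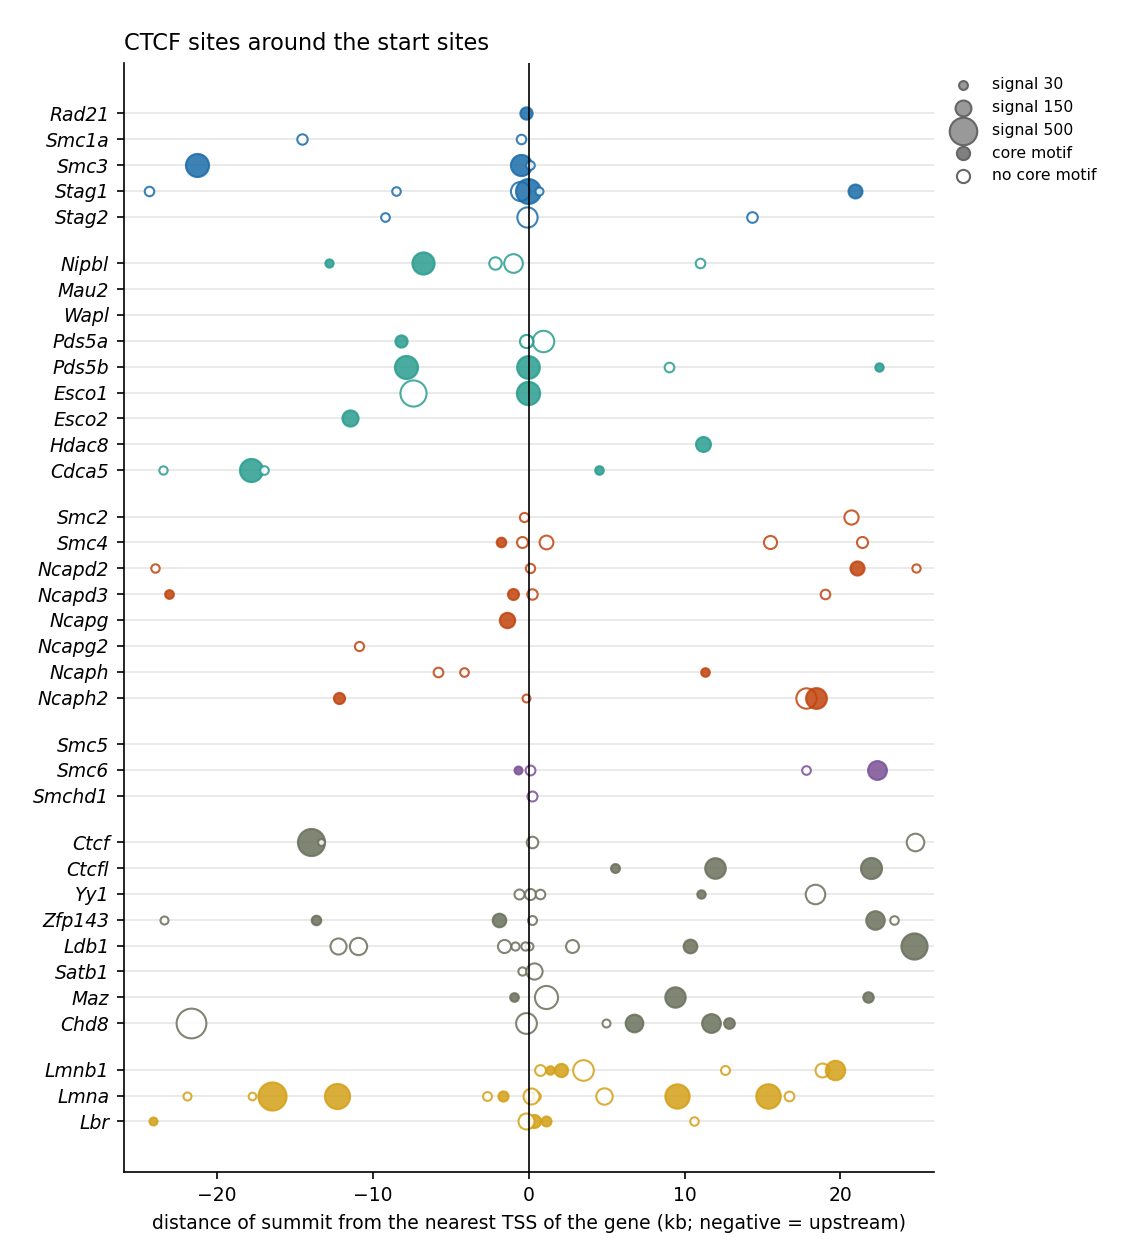
Position of every listed CTCF site within 25 kb of a start for the 36 genes, of which 33 had one (horizontal axis, distance of the summit from the nearest start in kb, upstream negative). Marker size follows pooled signal, and filled markers held the core motif. Lmna has 13 sites, Ldb1 9 and Rad21 1, and the strong sites of Ctcf and Chd8 lie upstream of the promoter.

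Sites inside the gene also differed among members. Lmnb1 had 11 sites in its body, or 24.1 per 100 kb, Maz 20.4 and Lmna 20.1 per 100 kb. Stag1, the longest of the genes at 362 kb, had 8 sites, or 2.21 per 100 kb. In 8 genes there was none: Rad21, Mau2, Wapl, Esco2, Ncapg, Ncapg2, Ncaph2 and Chd8. The median was 3.17 per 100 kb, beside 2.04 over all genes. With sites and gene lengths summed, the rates were nearly alike, 3.66 per 100 kb for members and 3.54 for all genes. Members were longer, with a median of 45.5 kb beside 17.4 kb. In Maz, a gene of 4.91 kb, the rate rests on 1 site.

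Each gene was also described by the strands of the nearest core motifs beyond its ends. At 10 of 36 members the cores faced each other across the gene (27.8%), beside 27.9% of all genes, at 10 they pointed apart and at 16 they lay on the same strand. The 10 were Stag1, Pds5a, Esco1, Smc4, Ncapd2, Ncaph2, Ldb1, Maz, Lmnb1 and Lbr. The distance between the flanking sites had a median of 129 kb, and ranged from 10.9 kb at Maz to 806 kb at Hdac8. The count rests on the list: it was 6 with the highest peaks of replicate 2 alone and 10 with those of replicate 1 alone, and 12 in the conservative list.

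The replicates gave similar values at most member sites. A peak lay within 100 bp in both replicates at 37 of the 39 promoter sites, and 33 of the 39 were in the conservative list. The median size of the log2 ratio of replicate 1 over replicate 2 was 0.32, beside 0.25 over all promoter sites. At 4 of the 37 sites (10.8%) the replicates differed by more than 2-fold, beside 7.84% of all promoter sites: the site of Smc1a, the site of Ncaph2, 1 of the inner sites of Lmna and the inner site of Satb1 (5.95 and 18.8). All 4 were weak sites, at or below a pooled signal of 38.6. At the strong sites of Stag1, Pds5b, Esco1, Pds5a and Smc3 the lowest replicate value was 139. At the condensin promoter sites the highest was 31.4. The strong sites were picked by their signal, so this gap was set by the choice and shows no difference between groups. Smc1a, of the cohesin ring, had 23.0 and 7.56, below the highest condensin value.

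**Figure D4:**
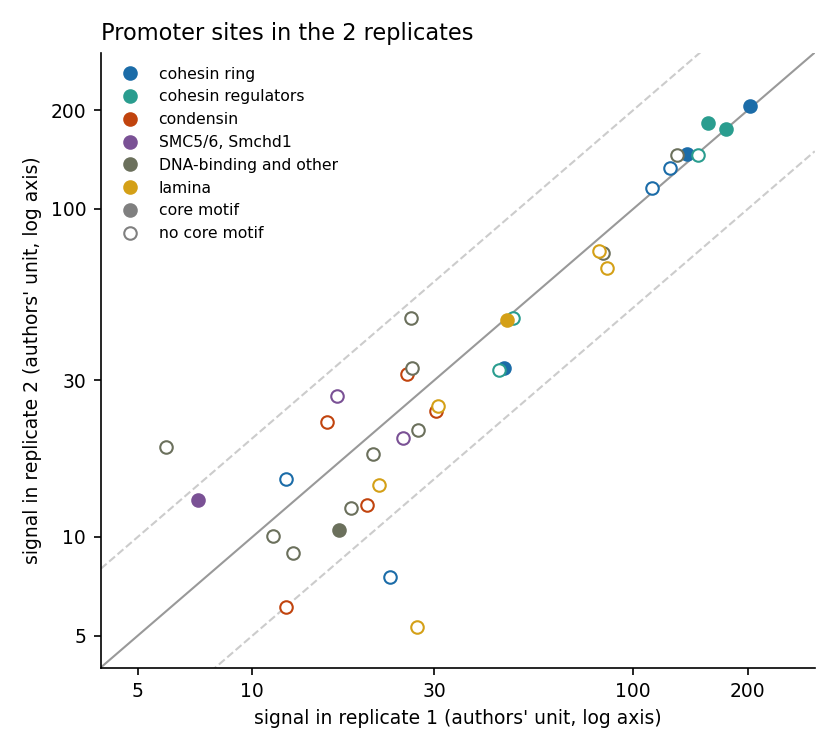
Peak signal in replicate 2 against replicate 1 (authors' unit, both axes log) at the 37 member promoter sites with a peak in both replicates, with a solid line at equal signal, dashed lines at a 2-fold difference and filled markers for sites that held the core motif. Strong sites lie close to equality, and the 4 sites that differ by more than 2-fold have low signal.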

How the data were processed

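The peak lists were deposited by the authors as mm10 narrowPeak files. Per the notes deposited with them, each replicate list was made from its own alignments, the pooled list from those of both, and the optimal and conservative lists from comparing these by the irreproducible discovery rate (IDR). The sources used here name no aligner, peak caller or IDR threshold. The signal of each peak is the authors' value, of unstated scaling, and the deposited offset places its summit. The lists carry no read counts, so the depth is unknown and no precision from depth can be given.

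Of 64742 peaks in the optimal list, 10 on other contigs were left out. Each remaining site was assigned to protein-coding starts of GENCODE M21. The replicate value is the highest peak of that replicate within 100 bp of the summit. GC content was taken over 500 bp on either side of the outermost 5′ end of each gene. Cores were searched in the RefSeq GRCm38.p6 genome. Analyses used Python 3.11.15, numpy 2.4.6, scipy 1.17.1 and pysam 0.24.0, and were tested on simulated data. All 36 members were named by role, with both replicate values for those with a promoter site and the nearest site for the others. Non-members were named where they shared a member promoter site, or as the 3 strongest of 48 related genes. The members and lists were chosen with earlier results of these data known, so counts stand beside the same share over all genes, with no test. Alternatives were the conservative list, the stronger part of the list, each replicate alone, other distances and start sets, and other settings of the motif search. The median place in the list was added after seeing the data.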

Additional observations from a re-analysis of the deposited data

How the results depend on the processing

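The count of 25 members with a promoter site was between 22 and 29 under 7 of 8 alternatives, and 11 at the 32366 strongest sites (19.2% of all genes). It was 25 with either replicate alone, where Ncaph2 was lost and Smc5 gained without replicate 1. Under those 7 alternatives the share of all genes moved too, from 33.2% within 500 bp (22 members) to 56.6% within 5000 bp (29 members). The count of 33 within 25000 bp was between 28 and 35, and the share of all genes between 67.1 and 81%. The median signal of the strongest promoter site (60.4, beside 72.2 over all genes) was 64.2 beside 77.2 in the conservative list and 107 beside 121 with starts within 5000 bp. It lay above that of all genes at the strongest sites (274 beside 194), with starts within 500 bp (73.9 beside 64.1) and with the starts of all transcripts (102 beside 80.5). From 1 replicate it was 30.3 to 32.7, beside 37.1 and 34.2, on the lower scale of those lists. The 8 of 39 promoter sites with the core became 17 of 59 within 5000 bp and 5 of 30 with the outermost end only. They became 13 of 47 with all transcripts and 2 of 39 with no mismatch allowed. In these settings more or fewer sites were searched or fewer matches accepted. The shares over all promoter sites were 34.5, 19.1, 24.8 and 3.9% in the same order, beside 20.6% at the main setting. The 10 members between facing cores were 6 to 10 with 1 replicate left out, 6 with no mismatch allowed, 7 at the strongest sites and 12 in the conservative list; the cause was not tested. The median place in the list turned against all genes where the median signal did. The shares with the core and with facing cores were near those of all genes at the main setting, and fell on either side of them with other settings. Facing cores lay at 6 of 36 members beside 27.9% of all genes without replicate 1, and beside 24.4% with no mismatch allowed. In the conservative list they lay at 12 of 36, beside 28%. The counts of condensin and of the group SMC5/6 and Smchd1 rest on few, weak sites: at the strongest sites neither had a promoter site. Of the 8 DNA-binding genes, 7 had one at the main setting and 2 at the strongest sites. The 3 of 9 genes for loading, release and acetylation became 5 within 5000 bp, where Nipbl and Cdca5 were gained. The unknown depth limits what can be said of weak or missing peaks, and both replicates come from 1 donor.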

Other observations

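Genes that act with these complexes were counted in the same way, from a list of 48 that held none of the 36. Of these, 30 had a promoter site (62.5%) and 45 had a site within 25000 bp, beside 39.8% and 79.9% of all genes. Of the meiotic cohesin genes 1 of 4 had a promoter site, Rec8, whose product is the meiotic kleisin, and of the topoisomerase and chromosome structure genes also 1 of 4. The partners of SMC5/6 had one at 5 of 7, the genes of the lamina and nuclear envelope at 7 of 9, and the zinc-finger and looping partners at 10 of 12. By pooled signal, the 3 strongest were Haspin, a histone kinase of mitosis, with 239 in replicate 1 and 211 in replicate 2, Adnp, a zinc-finger protein that competes with CTCF for sites, with 202 and 194, and Nsmce4a, the kleisin of SMC5/6, with 183 and 158. In the group SMC5/6 and Smchd1, the 3 promoter sites had 7.18 to 27.0. Nsmce4a was named for its high signal, so its place above them was set by that choice. Among the other SMC5/6 partners with a promoter site, Nsmce2 lay within this range in both replicates. Slf2 lay within it in replicate 1 only, and Nsmce1 and Nsmce3 lay above it in both replicates.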
